A study of Homo sapiens with 6 samples.

Results

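Genes whose enzymes make acetyl-CoA or coenzyme A (CoA), with the close relatives ACSS3 and PANK4, were followed in HEK293T cells after valproic acid (VPA). They are ACLY, ACSS1, ACSS2, ACSS3, PANK1, PANK2, PANK3, PANK4, COASY and PPCS. They were chosen by name as genes of these routes, with earlier results of these data known, and make up 10 of the 47470 genes listed in the count files. All 10 passed the filter on low counts. HEK293T is an immortal line derived from human embryonic kidney, with the large T antigen of SV40 added. The untreated group is labelled wild type and received nothing, and the VPA-treated group was the same line after 1 day in 1 mM VPA, an inhibitor of histone deacetylases, both in DMEM with fetal bovine serum. Each group had 3 strand-specific mRNA libraries from total RNA, 6 in all, and the labels do not say whether these came from separate cultures, so p-values measure the spread between these libraries, which may be technical.

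Acetyl-CoA is the donor of acetyl groups for histone acetyltransferases and the starting material for fatty acids and cholesterol. Outside the mitochondria it comes mainly from citrate, which ACLY cleaves, and from acetate, which ACSS2 activates. Acetate is also what histone deacetylases release, so ACSS2 can return it to acetyl-CoA. CoA itself is built from pantothenate (vitamin B5), by pantothenate kinase (PANK), PPCS, PPCDC and the bifunctional COASY in turn.

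The 6 libraries held between 18622267 and 18828495 counts on genes and differed little in depth. Of the HEK293T markers PAX2, LIN28B, NES, VIM and NEFM, all 5 were counted in every library, with summed counts of 16311 to 16621 in untreated and 19464 to 20568 in VPA-treated libraries. They went both ways: PAX2, NES and NEFM rose by 2.26, 2.01 and 0.87 on the log2 scale, and LIN28B and VIM fell by 0.23 and 0.27. Markers of iPS cells summed to at most 1 count per library and those of epithelial lines to at most 8. Of the 4 fibroblast markers, COL1A1, DCN and LUM rose and COL1A2 had 2 counts over the 6 libraries, with a summed 410 to 466 counts in untreated and 1557 to 1733 in VPA-treated libraries. DCN had raw counts of 0 to 3 in untreated and 40 to 47 in VPA-treated libraries. It passed the filter on low counts only through the VPA-treated group, so its rise adds no support. The part of these markers in the results was not tested. In bulk RNA, fewer cells of a type and less RNA per cell cannot be told apart.

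In VPA-treated cells the short-chain acyl-CoA synthetases ACSS1, ACSS2 and ACSS3 all rose, whereas ACLY, PANK1, PANK4 and PPCS fell. ACLY and PANK1 turned above 0 when ribosomal protein genes set the scale. PANK3 rose by 7.84%, and neither PANK2 nor COASY passed the test. The largest increase was 63.6% in ACSS1, and the largest decrease was in PPCS, which decreased by 23.8%. At an adjusted p under 0.05 in edgeR's quasi-likelihood test, 4 of the 10 genes were thus higher and 4 lower, beside 32.9% of all 15298 tested genes that were higher and 30.0% that were lower. These counts lie near the shares of all genes. The split rests on the scaling: higher genes made up 52.3% of all called genes with the TMM normalization used here, 63.0% after upper quartile scaling, 73.9% by library totals and 91.5% by ribosomal protein genes, and the last 2 moved the median log2 fold change of all genes to 0.14 and 0.28. None of the 10 also reached a log2 fold change of 1 in size, the second threshold used in the study, which 12.0% of tested genes passed upwards and 0.503% downwards. Their median log2 fold change was -0.030 against 0.0058 over all tested genes, and the median size of the change, regardless of direction, was 0.26 in both.

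**Figure D1:**
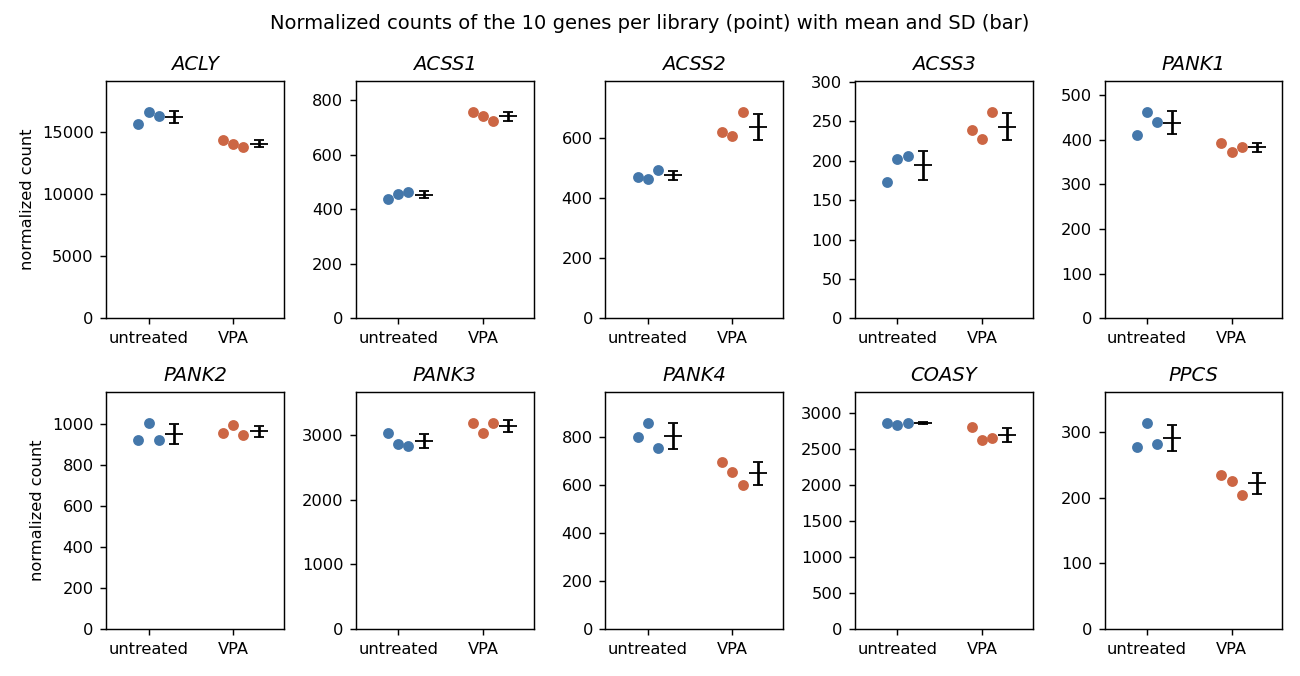
Normalized counts (TMM, at the mean library size, vertical axes from 0) of the 10 genes in 3 untreated (blue) and 3 VPA-treated (orange) libraries, with the mean and SD of each group as black bars. The groups are apart in ACSS1, ACSS2 and ACSS3 (VPA-treated higher) and in ACLY, PANK1, PANK4, COASY and PPCS (VPA-treated lower), and they overlap in PANK2 and PANK3.

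ACLY, the cytosolic enzyme that splits citrate into acetyl-CoA and oxaloacetate, lies on the minus strand at chr17:41866917-41930545 (RefSeq, GRCh38.p14). It had 15670, 16620 and 16333 normalized counts without VPA, against 14354, 14020 and 13777 with it. All 3 VPA-treated libraries lay below all 3 untreated ones. ACLY decreased by 13.3%, or -0.21 ± 0.041 (SE) on the log2 scale (adjusted p = 0.00017, edgeR). The raw counts, without any scaling, were also apart, at 15149 to 15892 against 14402 to 14992. With library totals as the scaling the log2 fold change was -0.074 (adjusted p = 0.0982, edgeR), and with ribosomal protein genes as the scaling it was 0.065 (adjusted p = 0.139, edgeR), so both the call and, in the latter, the direction rest on the scaling.

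ACSS2, which makes acetyl-CoA from acetate in the cytosol and nucleus, is on the plus strand at chr20:34874989-34927959. Its normalized counts were 471, 465 and 494 without VPA, against 620, 606 and 688 with it. Every VPA-treated library was above every untreated one, and the third was the highest. The rise was 33.9%, or 0.42 ± 0.064 (SE) on the log2 scale (adjusted p = 6.27e-06, edgeR). GGT7 overlaps ACSS2 on the opposite strand in GENCODE 44 and had 2896 counts over the untreated and 4422 over the VPA-treated libraries. The strand setting of the counting is not given in the sources used here, and the part of GGT7 reads in the result was not tested.

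ACSS1, the mitochondrial acetyl-CoA synthetase, is on the minus strand of the same chromosome at chr20:25006237-25058139 and overlaps no other gene in GENCODE 44. It had 439, 454 and 465 normalized counts without VPA, against 756, 741 and 722 with it. The gap between the groups was many times the spread within either. ACSS1 rose 1.64-fold, or 0.71 ± 0.058 (SE) on the log2 scale (adjusted p = 7.29e-10, edgeR).

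ACSS3, a mitochondrial synthetase that favors propionate, lies at chr12:81077871-81261210 on the plus strand. Its normalized counts were low, at 173, 203 and 207 without VPA, against 239, 228 and 262 with it. The groups were apart by less than in the other synthetases, with the first untreated library the lowest of all. The log2 fold change was 0.33 ± 0.092 (SE) (adjusted p = 0.00413, edgeR). LIN7A and PPFIA2 overlap it on the opposite strand in GENCODE 44, with 771 and 133 counts over the untreated and 1185 and 443 over the VPA-treated libraries, and their part in the result was not tested. The log2 fold changes of ACSS1, ACSS2 and ACSS3 stayed between 0.68 and 0.73, 0.36 and 0.46, and 0.24 and 0.37, respectively, with each library left out in turn. All 3 kept the direction and the call under each of the 15 alternatives, ACSS3 only narrowly. Its adjusted p was 0.0499 in DESeq2. In edgeR it was 0.0311 without the third VPA-treated library and 0.0329 without the first untreated one.

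Promoter windows are shown for the synthetases with the larger rises, ACSS1 and ACSS2, and for 2 genes that fell, ACLY and PPCS. Each window runs from 250 bases before to 50 after a RefSeq start on GRCh38.p14 and is written 5′ to 3′ along the gene. Capitals mark the GC box (GGGCGG, or CCGCCC for the other strand) and the CCAAT box (CCAAT, or ATTGG for the other strand). The windows are chr20:25058090-25058389 (minus strand) for ACSS1, chr20:34874739-34875038 and chr20:34876362-34876661 (plus strand) for the first and second start of ACSS2, chr17:41918973-41919272 (minus strand) for ACLY and chr1:42456091-42456390 (plus strand) for PPCS.
ACSS1: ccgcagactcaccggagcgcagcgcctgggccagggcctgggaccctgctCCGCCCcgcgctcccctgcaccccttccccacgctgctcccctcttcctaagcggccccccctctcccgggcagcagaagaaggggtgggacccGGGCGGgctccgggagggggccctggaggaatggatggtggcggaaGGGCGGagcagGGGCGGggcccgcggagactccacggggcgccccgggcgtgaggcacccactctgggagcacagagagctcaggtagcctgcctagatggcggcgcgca
ACSS2 first start: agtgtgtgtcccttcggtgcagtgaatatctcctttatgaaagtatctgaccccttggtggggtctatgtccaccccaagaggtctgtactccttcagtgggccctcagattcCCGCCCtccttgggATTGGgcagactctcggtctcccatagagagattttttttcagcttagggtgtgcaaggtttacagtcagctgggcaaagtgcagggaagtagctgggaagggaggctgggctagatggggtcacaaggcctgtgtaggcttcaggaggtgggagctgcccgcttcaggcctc
ACSS2 second start: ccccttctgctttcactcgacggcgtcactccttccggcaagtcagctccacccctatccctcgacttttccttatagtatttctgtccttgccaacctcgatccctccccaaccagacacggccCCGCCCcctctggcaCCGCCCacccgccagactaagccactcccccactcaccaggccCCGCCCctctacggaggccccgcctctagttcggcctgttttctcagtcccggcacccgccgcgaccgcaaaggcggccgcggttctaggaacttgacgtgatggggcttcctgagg
ACLY: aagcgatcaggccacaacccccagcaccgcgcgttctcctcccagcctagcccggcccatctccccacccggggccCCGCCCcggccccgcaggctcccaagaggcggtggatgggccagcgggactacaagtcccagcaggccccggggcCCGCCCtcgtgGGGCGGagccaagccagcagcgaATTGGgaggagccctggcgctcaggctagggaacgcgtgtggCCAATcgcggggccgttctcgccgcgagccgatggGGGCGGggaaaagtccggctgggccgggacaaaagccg
PPCS: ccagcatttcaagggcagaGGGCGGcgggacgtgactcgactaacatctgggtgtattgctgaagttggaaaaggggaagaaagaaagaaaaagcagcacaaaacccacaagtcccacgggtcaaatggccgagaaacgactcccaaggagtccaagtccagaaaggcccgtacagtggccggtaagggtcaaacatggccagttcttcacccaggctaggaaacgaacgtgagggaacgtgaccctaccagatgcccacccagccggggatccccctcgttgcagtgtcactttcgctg

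ACSS1, ACLY and PPCS each have a second start in the table, whose window is not printed. The GC box was found 4 times in the first ACSS1 window and 0 times in the second, and 4 times in each ACLY window. It was found 1 time and 3 times in the 2 ACSS2 windows and 1 time in each PPCS window. The CCAAT box was found 2 times in each ACLY window and 1 time in the first ACSS2 window, and in no window of ACSS1 or PPCS. Windows were given for 9 of the 10 genes (all but ACSS3), 18 windows in all, and 13 of these held a GC box against 44.95% of the 35116 windows of all genes. A CCAAT box was in 6 of the 18 against 34.6%. The E box (CACGTG), which 7.26% of all windows hold, and an SRE-like motif (TCACNCCAC), held by 1.13%, were in none of the 18. The TATA box (TATAAA), held by 11.5%, was in 3 of them. These 3 windows, all of PANK2, overlap and hold the same 1 site. Both strands were searched, and none of the 5 motifs contains another. The windows of 1 gene can overlap, so they are not independent, and a match is a description of the letters, not a bound site. Genes that rose and genes that fell both held GC boxes.

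**Figure D2:**
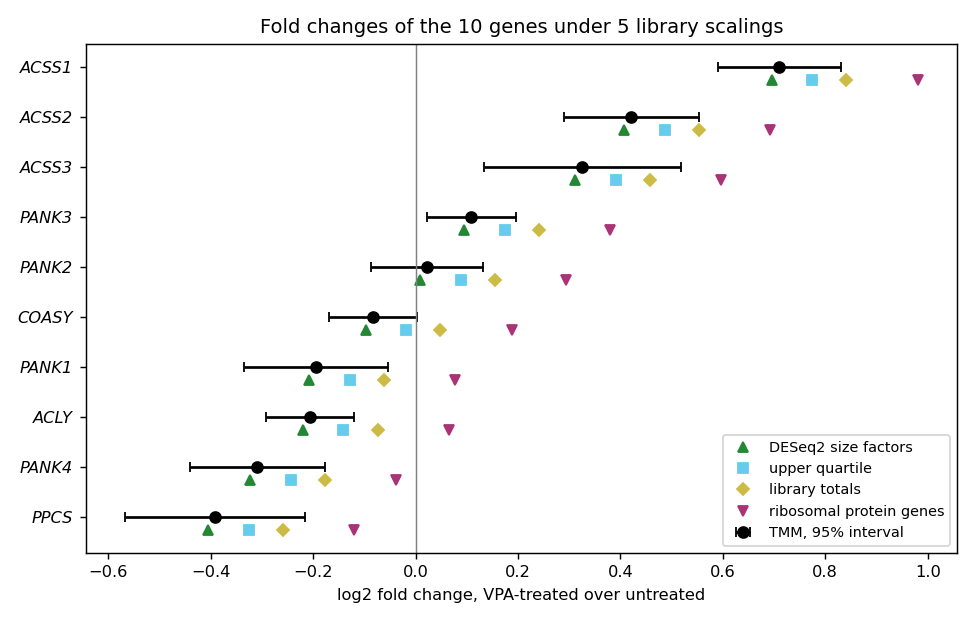
Log2 fold change of each gene in VPA-treated over untreated cells (horizontal axis), with TMM normalization and its 95% interval (black), and with 4 other scalings of the same libraries (colored symbols, no interval). ACSS1, ACSS2 and ACSS3 are above 0 with every scaling shown and PPCS and PANK4 below 0, while ACLY, PANK1 and COASY move from below to above 0 with ribosomal protein scaling.

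Within the pantothenate kinase family PANK1 and PANK4 fell and PANK3 rose, with PANK1 turning above 0 under ribosomal protein scaling. PANK1, PANK2 and PANK3 phosphorylate pantothenate, the step that limits CoA synthesis, and PANK2 is the mitochondrial form, mutated in a neurodegeneration with brain iron accumulation. PANK4 is related in sequence but lacks kinase activity and carries a phosphatase domain.

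PANK4, on the minus strand at chr1:2508537-2526596, had 800, 860 and 753 normalized counts without VPA, against 695, 653 and 599 with it. The groups did not overlap. It decreased by 19.3%, or -0.31 ± 0.064 (SE) on the log2 scale (adjusted p = 0.000236, edgeR). With ribosomal protein scaling the log2 fold change was -0.038 (adjusted p = 0.617, edgeR).

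PANK1, at chr10:89579495-89645242 on the minus strand, fell from 412, 462 and 441 normalized counts to 393, 372 and 384. The lowest untreated and the highest VPA-treated library were close. Its log2 fold change was -0.19 ± 0.068 (SE) (adjusted p = 0.0162, edgeR). The adjusted p was 0.0775 without the second untreated library, 0.0629 without the second VPA-treated library and 0.0512 in DESeq2. With upper quartile scaling and library totals it was 0.106 and 0.435 in edgeR, and with ribosomal protein scaling the log2 fold change of PANK1 turned to 0.077.

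PANK3, at chr5:168548495-168579368 on the minus strand, had 3037, 2868 and 2826 normalized counts in the untreated and 3186, 3036 and 3192 in the VPA-treated libraries. The second VPA-treated library lay just below the first untreated one, so the groups overlapped. The log2 fold change of 0.11 (standard error 0.042) passed with an adjusted p of 0.0291 in edgeR, but DESeq2 gave 0.165. Without the second untreated, the third untreated, the first VPA-treated or the third VPA-treated library the adjusted p was 0.13, 0.153, 0.0726 and 0.11 in edgeR.

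PANK2, at chr20:3888781-3929887 on the plus strand, had 922, 1008 and 925 normalized counts without VPA, against 956, 998 and 946 with it. The groups overlapped fully. Its log2 fold change was 0.022, with a 95% interval of -0.087 to 0.13 (adjusted p = 0.731, edgeR). With library totals it was 0.15 and with ribosomal protein scaling 0.29, and both passed (adjusted p = 0.0156 and 5.35e-05, edgeR). PANK2-AS1 and RNF24 overlap it on the opposite strand in GENCODE 44, and RNF24 had 798 counts over the untreated and 1310 over the VPA-treated libraries.

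PANK1, PANK2 and PANK3 each carry a microRNA hairpin in an intron on their own strand, MIR107, MIR103A2 and MIR103A1. The mature sequences (RefSeq, GRCh38.p14) are shown because they are what these 3 hosts share and PANK4 lacks. Capitals mark the seed, bases 2 to 8 from the 5′ end. They lie at chr10:89592756-89592778 in PANK1, chr20:3917541-3917563 in PANK2 and chr5:168560904-168560926 in PANK3.
hsa-miR-107 (PANK1): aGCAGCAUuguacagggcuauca
hsa-miR-103a-3p (PANK2 and PANK3): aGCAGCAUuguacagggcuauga

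Both have 23 bases and the same seed, and they differ by 1 substitution, G22C, from hsa-miR-103a-3p to hsa-miR-107, counted from the 5′ end. Among the 2370 mature microRNA names in the RefSeq table, these 2 are the ones with this seed. The hairpins themselves had 2 counts over the 6 libraries, both on MIR103A2, and most mRNA libraries capture short RNAs poorly, so the microRNAs were not measured here.

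Of the enzymes after the kinases, PPCS fell and COASY did not pass the test. PPCS, which joins cysteine to phosphopantothenate, lies at chr1:42456341-42473417 on the plus strand. It had 277, 315 and 282 normalized counts without VPA, against 236, 226 and 205 with it. The groups did not overlap, and the log2 fold change was -0.39 ± 0.085 (SE) (adjusted p = 0.000394, edgeR). With ribosomal protein scaling it was -0.12 (adjusted p = 0.215, edgeR). CCDC30 overlaps PPCS on the same strand in GENCODE 44, with 41 counts over the untreated and 64 over the VPA-treated libraries.

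COASY, the enzyme of the 2 closing steps of CoA synthesis, lies at chr17:42562148-42566277 on the plus strand. Its normalized counts were 2867, 2842 and 2864 without VPA, against 2805, 2630 and 2656 with it. The groups did not overlap, but the difference of -0.083 on the log2 scale did not pass (95% interval -0.17 to 0.0018, adjusted p = 0.0816, edgeR). Without the first VPA-treated library it was -0.11 and passed (adjusted p = 0.0288, edgeR), whereas with library totals it was 0.048 and with ribosomal protein scaling it was 0.19 (adjusted p = 0.316 and 0.000526, edgeR). Counting the genes whose normalized counts do not overlap between groups, 3 of the 10 were higher and 5 lower in VPA-treated cells, beside 34.8% and 31.0% of all tested genes.

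Levels of different genes were compared per length, as RPKM computed from the normalized counts and the length of all exons. On this scale ACLY stood far above the rest, at 166 ± 5.0 without VPA and 144 ± 2.97 with VPA (SD, n = 3 each). COASY followed with 37.9 ± 0.187 and 35.8 ± 1.25, then PANK3 with 15.03 ± 0.578 and 16.2 ± 0.456, and ACSS3 was the lowest with 0.562 ± 0.0538 and 0.704 ± 0.0502. In untreated cells the order in between was PANK4 at 8.47, PANK2 at 5.57, ACSS2 at 4.86, PPCS at 4.57, PANK1 at 3.20 and ACSS1 at 2.78. Of these neighbors, only ACSS2 and PPCS overlapped in their libraries. In VPA-treated cells the order was PANK4 at 6.84, ACSS2 at 6.50, PANK2 at 5.66, ACSS1 at 4.55, PPCS at 3.48 and PANK1 at 2.80, and only PANK4 and ACSS2 overlapped. With the longest transcript in place of all exons as the length, 3 of the 10 genes kept their rank in untreated and 8 in VPA-treated cells, so the order of the middle genes rests on the gene models.

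**Figure D3:**
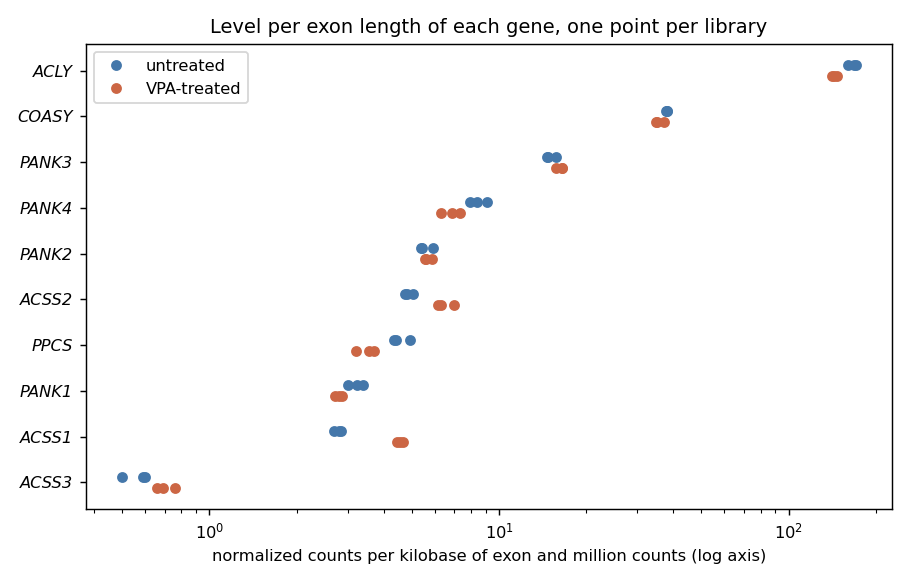
Level of each gene as RPKM from normalized counts and exon length (log axis), 1 point per library, untreated in blue and VPA-treated in orange, ordered by the untreated mean. ACLY, at 166 and 144, lies far above the synthetases, and ACSS1 is at 2.78 in untreated and 4.55 in VPA-treated cells.

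Within the synthetases, ACSS2 gave most of the summed level in every library. Its share was 60.0%, 58.4% and 59.3% without VPA, against 54.2%, 54.2% and 57.4% with it, while ACSS1 went from 33.8%, 34.4% and 33.7% to 39.9%, 40.0% and 36.4%. The summed level of the 3 genes was 8.20 ± 0.258 without VPA and 11.8 ± 0.414 with it (SD, n = 3 each). ACSS2 amounted to 2.92% ± 0.123 of the ACLY level without VPA and 4.51% ± 0.383 with VPA (SD, n = 3 each), with the groups apart. These shares and ratios follow from the values above and were not tested.

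Over the 4 PANK genes, including PANK4, which lacks kinase activity, the summed level was 32.3 ± 1.01 without VPA and 31.5 ± 0.640 with it (SD, n = 3 each), with overlapping libraries. In this sum PANK4 went from 8.47 to 6.84 and PANK1 from 3.20 to 2.80. PANK3 went from 15.03 to 16.2 and PANK2 from 5.57 to 5.66. The share of PANK3 was 48.2%, 44.7% and 46.8% without VPA, against 51.0%, 50.4% and 52.9% with it. The share of PANK4 was 25.9%, 27.3% and 25.5% without VPA, against 22.7%, 22.1% and 20.3% with it. Both shares were apart between groups, PANK3 higher and PANK4 lower with VPA. With the length of the longest transcript PANK4 was the larger in untreated cells, at 39.5% against 36.8% for PANK3, and the smaller in VPA-treated cells, at 33.8% against 42.0%. Which of the 2 leads in untreated cells therefore rests on the gene model.

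**Figure D4:**
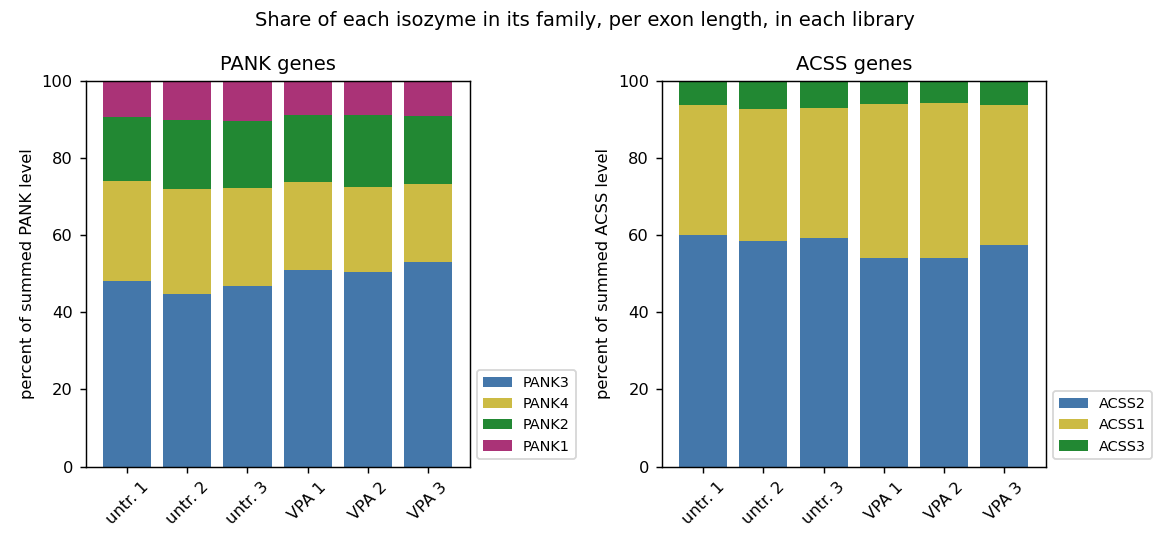
Share of each gene in the summed level per exon length of its family (vertical axis, percent) in each of the 3 untreated and 3 VPA-treated libraries, for the PANK genes (left) and the ACSS genes (right). PANK3 takes 44.7% to 48.2% in untreated and 50.4% to 52.9% in VPA-treated libraries, and ACSS1 takes 33.7% to 34.4% and 36.4% to 40.0%.

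Other genes of these routes were taken from 5 lists with 71 genes, of which 55 were tested, 22 were higher and 16 lower, near the 32.9% and 30.0% of all tested genes. These became 39 and 3 under ribosomal protein scaling, where higher genes were 91.5% of all called genes. ACSBG1, which passed the filter on low counts through the VPA-treated group, is among the 22. In the list on CoA supply and handling, 2 of 8 tested genes were higher and 4 lower (32.9% and 30.0% over all genes), with a median log2 fold change of -0.18. SLC5A6, the sodium-dependent transporter that brings pantothenate and biotin into the cell, had 3338, 3284 and 3311 normalized counts without VPA, against 2222, 2230 and 2167 with it. It fell more than any of the 10 synthesis genes, with a log2 fold change of -0.59 ± 0.040 (SE) (adjusted p = 3.47e-11, edgeR).

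PPCDC, the decarboxylase that acts between PPCS and COASY, had 538, 558 and 498 normalized counts in the untreated and 385, 345 and 380 in the VPA-treated libraries. Its groups were also far apart, with a log2 fold change of -0.52 ± 0.069 (SE) (adjusted p = 9.3e-07, edgeR). SLC5A6 and PPCDC kept their direction and call under each of the 15 alternatives. AASDHPPT, which transfers phosphopantetheine from CoA to carrier proteins, had a log2 fold change of -0.24 (adjusted p = 7.25e-05, edgeR), which was 0.026 with ribosomal protein scaling. SLC25A42, the mitochondrial CoA carrier, and NUDT7, a peroxisomal CoA diphosphatase, rose by 0.52 and 0.41 on the log2 scale (adjusted p = 7.43e-06 and 0.00584, edgeR).

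In the list from pyruvate to citrate, 3 of 14 tested genes were higher and 6 lower (32.9% and 30.0% over all genes), with a median log2 fold change of -0.017. DLAT and PDHX, parts of the pyruvate dehydrogenase complex, and CS, which forms citrate from acetyl-CoA, fell by 0.31, 0.18 and 0.31 on the log2 scale (adjusted p = 6.77e-07, 0.00264 and 1.61e-06, edgeR). With ribosomal protein scaling PDHX turned to 0.091, and DLAT and CS were at -0.035 and -0.040 and lost their calls. PDK4 and PDK1, kinases that inactivate the complex, rose by 1.46 and 0.22, and so did PDP1, a phosphatase that reactivates it, by 0.56 (adjusted p = 4.59e-08, 0.00288 and 2.95e-08, edgeR). PDK4 went from 43.4, 32.4 and 51.4 to 109, 111 and 132 normalized counts and is the 1 gene of this list past both thresholds. SLC25A1, the carrier that exports citrate to ACLY, had 2411 ± 33.1 and 2413 ± 136 normalized counts (SD, n = 3 each), which differed by 0.00078 on the log2 scale with a 95% interval of -0.093 to 0.094. By library totals the difference was 0.13 and by ribosomal protein genes 0.27. PDHA1 is listed at 0 in all 6 libraries, as is each of the 1437 genes of chromosome X in the files, and was not analysed here. PDK3, MID1IP1 and ACSL4 of the 5 lists are also on chromosome X and listed at 0, so they were not tested either.

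In the list on acetyl group transport and release, 4 of 11 tested genes were higher and 2 lower (32.9% and 30.0% over all genes), with a median of 0.0046. SLC16A7, a transporter of monocarboxylates such as pyruvate, rose the most, from 11.4, 19.9 and 13.6 to 95.7, 86.6 and 121 normalized counts. Its log2 fold change was 2.75 ± 0.21 (SE) (adjusted p = 2.72e-10, edgeR), on 360 counts in all. SLC16A1, a transporter of the same family with 44885 counts in all, fell by 0.31 on the log2 scale (adjusted p = 1.46e-06, edgeR), but was at -0.037 and not called with ribosomal protein scaling. CRAT, which moves acetyl groups between CoA and carnitine, rose by 0.58, and ACOT13, an acyl-CoA thioesterase, by 0.39 (adjusted p = 6.16e-08 and 1.71e-05, edgeR). ACAT2, which condenses acetyl-CoA in the cytosol, fell by 0.51 (adjusted p = 2.4e-06, edgeR). SLC33A1, the acetyl-CoA carrier of the endoplasmic reticulum, had a log2 fold change of 0.0046 with a 95% interval of -0.11 to 0.12, which was 0.14 by library totals and 0.28 by ribosomal protein genes.

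In the list on acetyl-CoA use in lipid synthesis, 3 of 8 tested genes were higher and 1 lower (32.9% and 30.0% over all genes), with a median of -0.038. HMGCS1, an early enzyme of cholesterol synthesis, rose by 0.49, SREBF2, a transcription factor of that pathway, by 0.14, and MLXIPL, a carbohydrate-responsive transcription factor, by 1.12 on the log2 scale (adjusted p = 2.79e-09, 0.00464 and 7.91e-09, edgeR). FASN, the fatty acid synthase, fell by 0.30 (adjusted p = 0.000171, edgeR), from 24288, 22138 and 20906 to 19768, 17706 and 17131 normalized counts. With ribosomal protein scaling FASN was at -0.032 and lost its call. ACACA and ACACB, the acetyl-CoA carboxylases, had log2 fold changes of -0.017 and -0.060 and did not pass (adjusted p = 0.752 and 0.377, edgeR). Both were named after their values were seen.

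The remaining list holds acyl-CoA synthetases that activate other acids, mainly fatty acids. Of its 14 tested genes 10 were higher and 3 lower, beside 32.9% and 30.0% of all tested genes, and the median log2 fold change was 0.63 against 0.0058 over all genes. ACSF2 rose by 0.88, SLC27A6 by 1.34 and ACSL6 by 1.14 on the log2 scale (adjusted p = 3.84e-10, 2.32e-09 and 6.64e-09, edgeR), and ACSL6 and SLC27A6 were past both thresholds, as were ACSM3 and ACSBG1, 4 genes in all. ACSBG1 had raw counts of 6 to 10 in untreated and 13 to 28 in VPA-treated libraries. It thus passed the filter on low counts through the VPA-treated group. ACSBG1 is still included in the 10 higher genes, the 4 past both thresholds and the median of 0.63, and it raises each of them. These values therefore rest in part on how it passed the filter. ACSL3, a long-chain synthetase with 12729 counts in all, fell by 0.31 (adjusted p = 6.18e-06, edgeR), but was at -0.038 and not called with ribosomal protein scaling. SLC27A4 and ACSF3 fell by 0.14 each (adjusted p = 0.0181 and 0.0478, edgeR) and turned to 0.13 each with ribosomal protein scaling. Of the 7 medium-chain ACSM genes only ACSM3 was tested, at 50.5 ± 9.02 and 137 ± 8.04 normalized counts (SD, n = 3 each). Its log2 fold change was 1.44 ± 0.14 (SE) (adjusted p = 8.04e-09, edgeR). That of ACSBG1 was 1.04 ± 0.37 (SE) (adjusted p = 0.0197, edgeR). ACSBG1 had 10.3, 8.37 and 6.29 normalized counts without VPA, against 12.4, 12.5 and 26.8 with it. The third VPA-treated library thus lay far above the others, and ACSBG1 was called the same way in 9 of the 15 alternatives. ACSM3 and ACSBG1 were named after their values were seen.

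**Figure D5:**
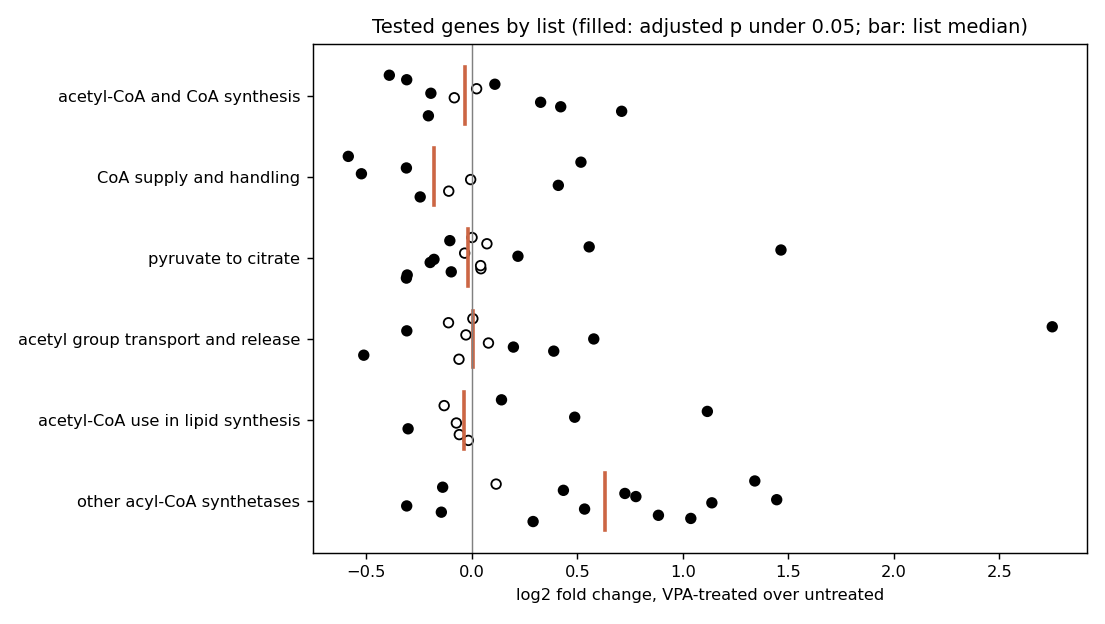
Log2 fold change in VPA-treated over untreated cells (horizontal axis) of each tested gene by list, filled where the adjusted p is under 0.05 in edgeR, with the list's median as an orange bar. The medians of 5 lists, the 10 genes included, lie between -0.18 and 0.0046, and that of the other acyl-CoA synthetases is 0.63. The latter includes ACSBG1, which passed the filter on low counts through the VPA-treated group.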

How the data were processed

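Total RNA of HEK293T cells was sequenced as strand-specific mRNA libraries, 3 untreated and 3 VPA-treated. The authors cleaned the reads with SOAPnuke, mapped them to hg38 by STAR and deposited whole-number counts per gene from htseq-count, not normalized. The submitters' processing notes name STAR 2.7.10b and HTSeq 2.0.1, and the methods of the study name another HTSeq release. The gene annotation and the strand setting are not given in the sources used here. Reads that align to several places were set aside, which can lower genes that have close copies. Summary lines that name no gene were kept out of totals (6.80% to 7.69% on no gene, 1.97% to 2.10% ambiguous, 2.81% to 2.92% not unique). Libraries of 1 group differed by more than sampling noise (chi-square per gene of 1.62 to 4.80), and each was counted as 1 replicate.

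The test was edgeR 4.0.16 under R 4.3.3 (TMM, filterByExpr with a count minimum of 10, robust quasi-likelihood fit, condition as the 1 term, Benjamini-Hochberg adjustment over 15298 genes). Standard errors (SE) were taken from the F statistic and the log2 fold change. The biological coefficient of variation was 3.83%. Normalized counts use the TMM library sizes, brought to the mean size. Exon lengths and overlapping genes are from GENCODE 44, positions and sequences from RefSeq on GRCh38.p14. The test was checked on simulated counts of 15044 genes. It found 24 of 50 genes changed 1.2-fold, 50 of 50 changed 1.5-fold or 2-fold, and 49 of 50 changed 4-fold. It also called 16 unchanged genes. The alternatives were DESeq2 1.42.0, other scalings and filters, a block on replicate number, an FDR of 0.01, and each library left out. Named pathway genes were the 3 of smallest p in each direction per list, with SLC5A6, PPCDC, PDHA1, SLC25A1 and SLC33A1 added; ACSM3, ACSBG1, ACACA and ACACB were named after their values were seen. The members and lists were chosen with earlier results of these data known. Protein sequences were not used here. The result of 1 marker list is not reported here.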

Additional observations from a re-analysis of the deposited data

How the results depend on the processing

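Of 150 recomputed fold changes of the 10 genes, 120 kept their direction and their side of the threshold, 17 lost the call, 5 gained it and 8 changed direction. Scaling moved the values most: the median log2 fold change over all genes went from 0.0058 (TMM) to -0.0081 (DESeq2 size factors), 0.071 (upper quartile), 0.14 (library totals) and 0.28 (ribosomal protein genes). With ribosomal protein scaling ACLY was at 0.065, PANK1 at 0.077 and COASY at 0.19, 0 of the 10 genes were lower, 39 pathway genes were higher and 3 lower, and over all genes 9250 were higher, 854 lower and 17 down past both thresholds. With library totals COASY was at 0.048, 2 of the 10 genes (PANK4 and PPCS) and 9 pathway genes were lower, and over all genes 2372 were lower and 38 down past both thresholds. Without a filter 162 genes were down past both thresholds, and with at least 10 counts in every library 1179 were up and 43 down, since each filter changes which genes are tested. PANK2 was at -0.0021 with DESeq2 and ranged from -0.0065 to 0.058 with 1 library left out, below 0 without untreated replicate 1 (-0.0065), untreated replicate 3 (-0.0043) or VPA-treated replicate 2 (-0.0022). With DESeq2 size factors in edgeR the adjusted p was 0.0439 for COASY and 0.0544 for PANK3, and without a filter it was 0.116 for PANK3. Beyond these scalings the cause was not tested.

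With the longest transcript as the length, 3 of the 10 genes kept their rank in untreated cells, PANK3 took 36.8% of the PANK level in untreated and 42.0% in VPA-treated cells, ACSS2 took 58.0% of the ACSS level in untreated cells, and ACSS2 was at 4.34% and 6.71% of ACLY. The replicate block gave COASY an adjusted p of 0.0167 in edgeR and changed no other call among the 10 genes. Same-numbered libraries deviated from their group means with correlations of 0.139, 0.0214 and 0.0805, against -0.107 to 0.0308 for libraries of unlike number. With the block 5357 of all genes were higher and 5100 lower, against 5037 and 4591 without it. The SE of ACLY was 0.029 with the block and 0.041 without it. The labels do not say whether same-numbered libraries were handled together, so the main test had no block. A shared effect of the replicate number was not tested. At an FDR of 0.01 PANK1 and PANK3 were not called. Depth limits ACSS3 and PPCS most, with 1319 and 1533 counts over the 6 libraries.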
